A study of Mus musculus with 8 samples.

Results

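Tfrc encodes the transferrin receptor, and it was followed here through 1 probe of the 60930 that a one-colour mouse array holds outside its control classes; Tfrc is 1 of 15 genes identified on it. The probe, CUST_8_PI419532418, carries the RefSeq accession NM_011638.3, which matched the mouse gene Tfrc (gene 22042), and it is printed 20 times on every array. The gene was chosen by its level, which is lower in Srf knockout than in wild-type cells, so that difference is described without a test. RNA was compared in 5 groups. Cultured mouse aortic smooth muscle cells at passage 3 were wild type with an empty adenovirus (AdEmpty, 2 arrays), Srf knockout with the same empty adenovirus (2 arrays) or wild type with an adenovirus carrying Myocd (AdMyocd, 2 arrays). All 6 cultures received virus at a multiplicity of infection of 100 for 3 days, so no culture was free of adenovirus. Freshly isolated wild-type aorta and liver gave 1 array each. The mouse strain, the age, the way Srf was deleted and the promoter that drives Myocd are not given in the sources used here. The labels do not tie replicates to separate animals or cultures, so their spread may be technical.

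The transferrin receptor is the cell surface protein that binds iron-loaded transferrin and carries it into the cell by endocytosis, where iron is released and the receptor returns to the surface. Its mRNA is held stable by iron regulatory proteins when the cell is short of iron, and its gene is switched on in dividing and hypoxic cells. Srf encodes serum response factor, which binds CArG elements in growth-response, cytoskeletal and contractile genes; the Myocd product, myocardin, is its partner in muscle. The design asks which transcripts depend on Srf and which respond to Myocd.

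Mouse Tfrc lies on chromosome 16 at 32608896 to 32632794 in RefSeq's annotation of GRCm38.p6, and RefSeq gives it 2 transcript starts, 226 bases apart. The array files name an mm9 design, and the position of the probe within the transcript was not used here. The sequence before the first start, chr16:32608646-32608895 on the plus strand, is shown because Srf acts through CArG elements and the gene was picked in Srf knockout cells. It holds no CArG match in the search described below. Capitals mark its 1 match to CCAAT, whose last base lies 120 bases before that start.
Tfrc upstream: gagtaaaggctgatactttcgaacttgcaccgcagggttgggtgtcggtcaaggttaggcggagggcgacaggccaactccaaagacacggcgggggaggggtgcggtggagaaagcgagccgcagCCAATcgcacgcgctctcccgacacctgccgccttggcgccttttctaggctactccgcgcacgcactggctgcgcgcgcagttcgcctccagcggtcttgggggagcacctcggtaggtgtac
A second stretch, chr16:32608881-32608910, spans the first start and is shown because it holds ACGTG in capitals, the letters at the core of a hypoxia response element.
Tfrc start site: cctcggtaggtgtACGTGcggaaggaagtg
Each motif was searched on both strands of windows of 300 bases around RefSeq starts, from 250 before to 50 after. The CArG motif was searched as CCWWWWWWGG, where W is A or T, with no mismatch allowed. It had no match in either Tfrc window, and 1.63% of all 32851 windows held one. CCAAT was found in 1 of the 2 Tfrc windows and in 37.4% of all windows. ACGTG was found in both, as the same site, and in 19.6% of all windows. The Tfrc windows were 66.0% and 70.0% G or C, against a median of 52.7%. These matches describe letters, and a missing match says nothing about binding elsewhere.

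The arrays differed in overall brightness, and the liver array stood apart. A level below is the mean log2 processed intensity of the probe's spots minus the 75th percentile of all probes on the same array, and that percentile ran from 452 to 498 intensity units in cultured cells and was 364 for aorta and 165 for liver. Control probes for the 5′ and 3′ ends of mouse Pgk1, a glycolytic enzyme gene, showed the same array as distinct. The 5′ probe minus the 3′ probe ran from -3.91 to -3.09 log2 units over the cultured arrays and was -4.60 for aorta and -11.33 for liver, where the 5′ probe read 7.48 intensity units. A loss of 5′ signal relative to 3′ signal is commonly read as a sign of degraded RNA. For Gapdh, the same quantity ran from 0.33 to 0.62 over the cultured arrays and was 0.36 for aorta and -1.88 for liver. No probe was assigned here to Srf, Myocd or any of 32 listed markers of smooth muscle, liver, endothelial, blood, fat or fibroblast cells, and no label was checked on them.

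**Figure D1:**
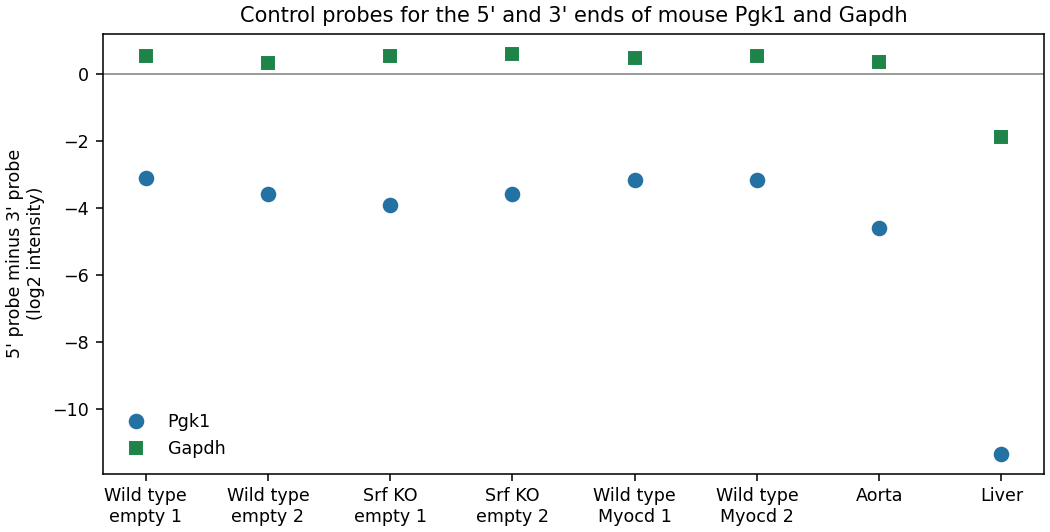
Difference between the 5′ and 3′ control probes of mouse Pgk1 (circles) and Gapdh (squares), in log2 intensity units, on each of the 8 arrays. The liver array lies at -11.33 for Pgk1 and -1.88 for Gapdh, below every other array.

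Tfrc was a bright probe on every array, and its spots repeated closely. All 20 spots were well above background on each of the 8 arrays, none was flagged as an outlier and none was saturated. In wild-type cells with empty virus, the spots of replicate 1 ran from 29963 to 39294 intensity units (median 32889). Those of replicate 2 ran from 43624 to 49801 (median 45458), so the replicates did not overlap at the level of single spots. In Srf knockout cells, the spots ran from 15294 to 16623 (median 15962) in replicate 1 and from 16176 to 18542 (median 17647) in replicate 2. Every knockout spot was dimmer than every wild-type spot before any scaling.

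With Myocd virus, the spots ran from 46301 to 54714 (median 50859) in replicate 1 and from 44727 to 51413 (median 47505) in replicate 2. They overlapped with wild-type replicate 2 and lay above all spots of wild-type replicate 1. In aorta they ran from 6311 to 6737 (median 6523) and in liver from 6118 to 7118 (median 6527), so the tissues overlapped before scaling. The SD of the spots within an array was 0.028 to 0.095 log2 units over the 8 arrays, and the median probe designed as a negative control read between 3.27 and 4.03 intensity units. Spots measure the same labelled RNA and are not replicates of a condition.

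**Figure D2:**
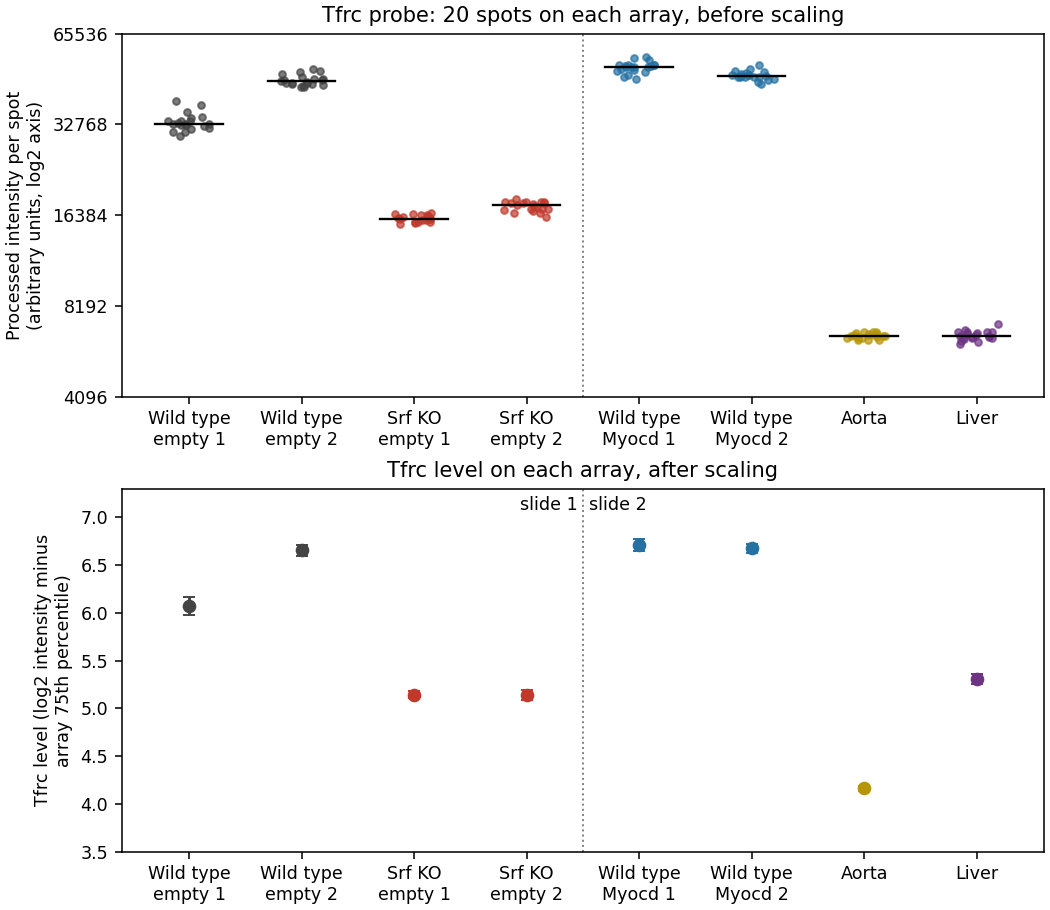
Upper panel, processed intensity of the 20 Tfrc spots on each array (log2 axis), with a line at the median; lower panel, the Tfrc level on each array after subtraction of the array's 75th percentile, with bars for the SD of the spots. The knockout arrays lie at 5.14 and 5.14, below both wild-type arrays at 6.07 and 6.65, and the dotted line parts the arrays of slide 1 from those of slide 2.

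In Srf knockout cells the Tfrc level was 5.14 on replicate 1 and 5.14 on replicate 2, and in wild-type cells with the same virus it was 6.07 and 6.65. Both knockout arrays were low, and after this scaling the wild-type replicates lay far apart while the knockout replicates were nearly equal. The group means were 6.36 ± 0.41 for wild type and 5.14 ± 0.0058 for knockout (SD, n = 2 arrays each), a difference of -1.22 log2 units or 2.34-fold. Over the 4 pairings of a knockout with a wild-type array it ran from 1.91-fold to 2.86-fold. Spots printed at the same position were lower in the knockout at 20 of 20 positions in each of these pairings. That count adds no support, because every knockout spot was dimmer than every wild-type spot before scaling and spots are not replicates. No test is given, because the knockout difference chose the gene.

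Among 44017 tested probes with values on all 4 arrays, the median difference was 0.07 log2 units and 2.97% had a difference as low as that of Tfrc or lower. In the fit across all tested probes, 20.6% of probes were called in this comparison and 8.4% were called lower. None of the other 14 identified genes had a difference as low, and theirs ranged from -0.54 to 0.87. These places follow from the choice of Tfrc. Wild-type and knockout arrays shared slide 1. The Pgk1 end control was -3.09 and -3.57 on the wild-type arrays and -3.91 and -3.58 on the knockout arrays, and its part in the difference was not tested.

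The size of the knockout difference rested on the wild-type arrays. Wild-type replicate 2 was 0.58 log2 units (1.49-fold) above replicate 1, where the SE of that gap from the spots alone was 0.025. A gap at least as wide was found for 20.0% of tested probes between these arrays. The corresponding gaps for Tfrc were -0.01 between the knockout and -0.03 between the Myocd arrays. Replicate 2 of wild type was also above replicate 1 for 9 of the other 14 identified genes, with gaps from -0.16 to 0.52. Over all tested probes the median of this gap was only 0.03. Set against wild-type replicate 2 alone, the knockout mean differed by -1.51 log2 units, and against replicate 1 alone by -0.93.

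With Myocd adenovirus, Tfrc was not distinguishable from wild-type cells with empty virus. The level was 6.71 and 6.68 with Myocd, against 6.07 and 6.65 with empty virus. The lower Myocd array was only 0.02 log2 units above wild-type replicate 2, and its spots were lower than that array's at 5 of 20 positions. With per-array medians as the scaling the groups overlapped, at 0.27 and 0.20 for Myocd and -0.32 and 0.32 for empty virus, relative to the empty-virus mean. The mean with Myocd was 6.69 ± 0.021 (SD, n = 2). The log2 change of 0.33 (SE 0.21, 95% interval -0.19 to 0.85, limma adjusted p = 0.357) corresponds to 1.25-fold, with an interval from 0.875-fold to 1.80-fold. The interval leaves room for a rise of that size, so equal levels were not shown.

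In this comparison 15.2% of tested probes were called and 7.99% were called higher, and the median change of all tested probes was -0.02. A change at least as high as that of Tfrc was found for 22.9% of probes. Wild-type replicate 2 decided this: with it left out the change was 0.62 and passed (limma adjusted p = 0.0372). With wild-type replicate 1 left out instead, the change was 0.037 (limma adjusted p = 0.870). Myocd arrays lay on slide 2 and empty-virus arrays on slide 1, so virus and slide cannot be told apart. The wild-type arrays were also among those that chose the gene.

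Side by side, both arrays of wild-type cells with Myocd lay above both arrays of Srf knockout cells. The Myocd mean was 1.55 log2 units (2.93-fold) above the knockout mean, and the 4 pairings of single arrays ran from 2.89-fold to 2.97-fold. All 20 positions were higher with Myocd in each pairing, but spots are not replicates. Among tested probes, 4.01% had a difference at least as high as that of Tfrc. This difference has no test, since the knockout arrays chose the gene, and the arrays lay on different slides.

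**Figure D3:**
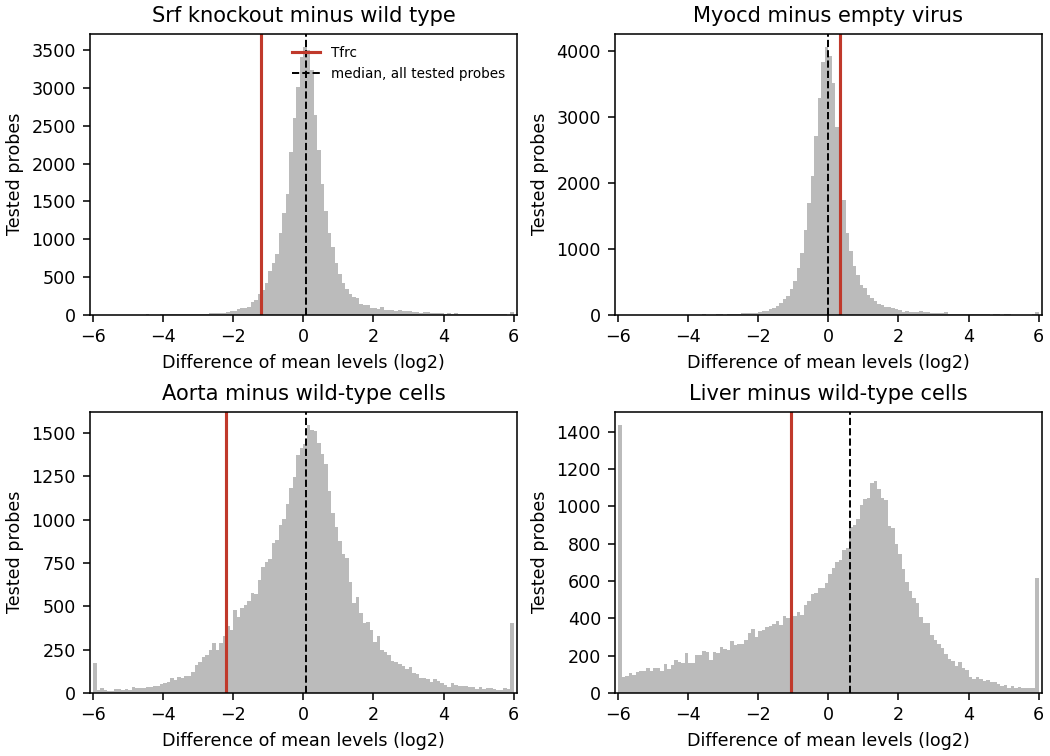
Number of tested probes (vertical axis) by difference of mean levels in log2 units (horizontal axis, end bins hold all values beyond them) for 4 comparisons, with Tfrc as a red line and the median of tested probes as a dashed line. Tfrc lies at -1.22 in the knockout, 0.33 with Myocd, -2.20 in aorta and -1.06 in liver.

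In whole aorta the Tfrc level was 4.16, the lowest of the 8 arrays, and its difference from the mean of the cultured wild-type cells was -2.20 log2 units (4.60-fold lower). Aorta was also 0.97 log2 units below the lower knockout array, a step whose size depended on the scaling, as given below. Among tested probes, 8.12% were as low as Tfrc or lower against wild-type cells, where the median difference was 0.08. Tested probes had to be well above background in a cultured group, with no such condition on tissue. Probes bright only in tissue are therefore missing from this share. Of the other 14 identified genes, 11 were below wild-type cells in aorta. Whole aorta holds endothelial and adventitial cells beside smooth muscle, and a lower level in tissue RNA cannot separate fewer expressing cells from less RNA per cell. Aorta was freshly isolated, without culture or virus, and has 1 array, so this comparison has no replicate check.

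In liver, an organ that stores iron, the level was 5.31, which is -1.06 log2 units (2.08-fold lower) from wild-type cells. The direction in liver depended on the scaling: without scaling it was -2.58, and relative to the mean of the other 14 identified genes it was 0.22. Of those 14 genes, 9 were below wild-type cells in liver and 5 above, from G6pd2, which encodes a glucose-6-phosphate dehydrogenase, at -5.14 to Gk, the glycerol kinase gene, at 3.84. Over all tested probes the median difference of liver from wild-type cells was 0.63, and 27.8% were as low as Tfrc or lower. These probes too were filtered on cultured cells only. The liver array is the one that stood apart in the end controls and in overall brightness, and the part of either in these values was not tested.

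Between the tissues, the difference of aorta from liver was -1.14 log2 units (2.21-fold lower in aorta) after scaling. The scaled spots were lower in aorta at 20 of 20 positions. That count adds no support, because it follows from the scaling and spots are not replicates. Before scaling, the geometric means of the spots were 6520 in aorta and 6540 in liver, a difference of -0.0045 log2 units. The gap between the tissues was therefore equal to the gap between their 75th percentiles, within less than 0.01 log2 units. Among tested probes, filtered on cultured cells only, the median difference of aorta from liver was -0.43.

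**Figure D4:**
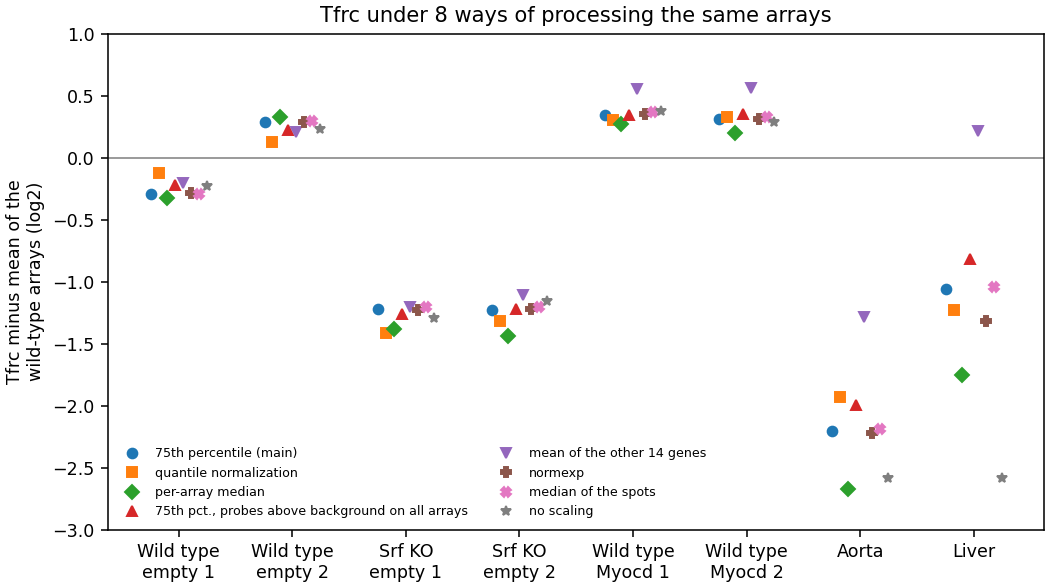
Tfrc on each array minus the mean of the wild-type arrays (log2 units), under 8 ways of processing the same intensities, shown as symbols. The knockout arrays stay below the wild-type arrays in all of them, the direction for which the gene was chosen. Liver ranges from -2.58 without scaling to 0.22 relative to the other 14 identified genes.

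From high to low, the group levels were 6.69 for wild-type cells with Myocd, 6.36 for wild-type cells with empty virus, 5.31 for liver, 5.14 for Srf knockout cells and 4.16 for aorta. Myocd and empty-virus cells were neighbours that did not differ beyond the spread of the wild-type replicates. Liver lay 0.16 above the higher knockout array, a step smaller than the pooled SD of the cultured replicates (0.24), and their order turned with the scaling. Relative to wild-type cells, liver lay below both knockout arrays with per-array medians (-1.75 against -1.38 and -1.44), with normexp background correction (-1.32 against -1.23 and -1.22) and without scaling (-2.58 against -1.29 and -1.16). The step from wild-type replicate 1 down to liver was 0.77 and that from the lower knockout array to aorta 0.97. The size of the step to aorta also depended on the scaling. Scaled by the mean of the other identified genes, aorta lay at -1.29 from wild-type cells, against -1.21 and -1.11 for the knockout arrays. With quantile normalization it lay at -1.93, against -1.42 and -1.32. In the plot of Tfrc under 8 ways of processing, the knockout difference from wild-type cells stayed between -1.41 and -1.16 log2 units.

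Of 26 genes listed for iron uptake, storage, export and their control, Tfrc was the only one with an identified probe. Genes such as Fth1, the ferritin heavy chain, Slc40a1, the iron exporter, and Slc11a2, the endosomal iron transporter, were not analysed here. Likeness of pattern was therefore taken over the other 14 identified genes, as Pearson's r of levels over arrays. Arrays of one group share their condition and slide, so these values are descriptions.

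Over all 8 arrays, the genes most like Tfrc were Rpl13a, a ribosomal protein gene (r = 0.69, Spearman's rho = 0.26), Ppia, the cyclophilin A gene (r = 0.68, rho = 0.52), and Actb, the cytoplasmic beta-actin gene (r = 0.68, rho = 0.86). Without liver, r was 0.72, 0.77 and 0.97, and for Gapdh it was 0.92. Over the 6 cultured arrays alone, r was 0.15 for Rpl13a (rho = -0.37) and 0.44 for Ppia (rho = 0.49). Least like it were Gk (r = -0.48), and Ldhal6b, a lactate dehydrogenase-like gene (r = -0.36), both of which were higher in the tissues than in wild-type cells. The median r was 0.46 over the 14 genes and -0.13 over the 43962 other tested probes.

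Over the 6 cultured arrays the order changed, with Actb first (r = 0.97, rho = 1.00), Gapdh, the glycolytic enzyme gene, next (r = 0.84, rho = 0.83) and then Gk (r = 0.65, rho = 0.77). At the other end stood G6pd2 (r = -0.86, rho = -0.89) and Gusb, the lysosomal beta-glucuronidase gene (r = -0.82, rho = -0.89). Of the 14 genes, 9 had a positive r, with a median of 0.17, against -0.15 over the 43962 other tested probes. Actb and Tfrc put the 6 arrays in the same order after scaling, but for Tfrc that order rests partly on small steps. The knockout arrays were 0.008 apart. From Myocd replicate 1 down to wild-type replicate 2 the steps were 0.030 and 0.022. Before scaling, Tfrc was higher on knockout replicate 2 than on replicate 1 (14.10 against 13.96 log2 units). The sizes of the differences were not the same. Actb differed by -0.47 in the knockout, where Tfrc differed by -1.22, and by 0.26 with Myocd, where Tfrc differed by 0.33. In aorta Actb was -0.76 from wild-type cells and Tfrc -2.20, and in liver Actb was -1.85 and Tfrc -1.06.

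**Figure D5:**
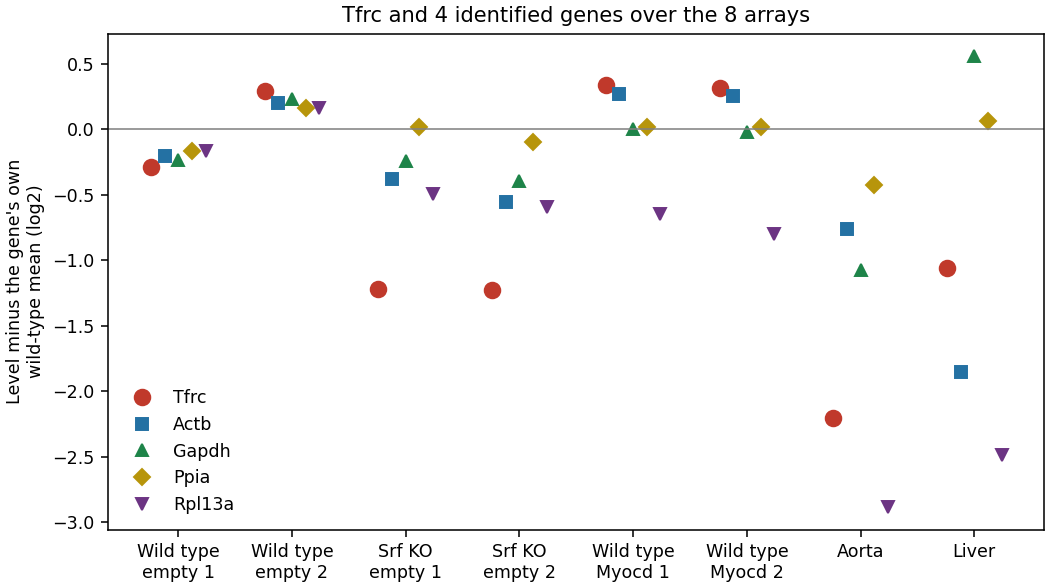
Level of Tfrc and of Actb, Gapdh, Ppia and Rpl13a on each array, minus the gene's own mean in wild-type cells (log2 units); each symbol is 1 array. Tfrc and Actb are low on the same knockout arrays, at differences of -1.22 and -0.47. They part in aorta (-2.20 and -0.76) and in liver (-1.06 and -1.85).

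Among all 43962 other tested probes with values on every array, the 2 most like Tfrc over 8 arrays carry only the maker's identifiers. ASMM10P032726 (r = 0.99) stood at 3.10 and 3.37 in wild-type, 2.73 and 2.60 in knockout and 3.41 and 3.37 in Myocd cells, at 2.16 in aorta and at 2.82 in liver. ASMM10P050653 (r = 0.99) stood at 6.22 and 6.60, 5.34 and 5.42, and 6.77 and 6.67 in the same groups, at 4.31 in aorta and at 5.71 in liver. Both were lower on the knockout arrays than on the wild-type arrays and lowest in aorta, as Tfrc was, which follows from their choice by r. Over the 8 arrays, 66 probes (0.150%) had an r over 0.95, and over the 6 cultured arrays 696 (1.58%) did. The 2 probes were picked from 43962 by r over only 8 values, so their r is a description. What lies behind the high values was not tested, and neither probe was assigned to a gene.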

How the data were processed

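One-colour Cy3 arrays of 8 RNA samples were used. Intensity per spot comes from the authors' scanner software, Agilent Feature Extraction 11.0.1.1 per the file headers, as a background-subtracted, detrended value, with no scaling between arrays stated. A deposited table holds the authors' log2 values, with centring and normalization not given in the sources used here; it does not list the Tfrc probe, so it served only for counts of calls. Here, outlier-flagged spots were left out, spots were averaged on the log2 scale and each array's 75th percentile was subtracted. Probes well above background on all arrays of at least 1 cultured group (44077) were tested with limma 3.58.1 (R 4.3.3) over the 6 cultured arrays, two-sided, with Benjamini-Hochberg adjustment and a threshold of 0.05, after a check on simulated data. The number of arrays limits precision. All 15 RefSeq accessions matched a gene in a GRCm38 table. Tfrc and the lists were chosen with earlier results of these data known. Named besides Tfrc are the 3 identified genes with the highest r over 8 and over 6 arrays, the 2 with the lowest, and the 2 likest other probes; G6pd2 and Gusb were named after their values were seen. Normexp used the median signals, the columns the files hold.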

Additional observations from a re-analysis of the deposited data

How the results depend on the processing

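The knockout difference of Tfrc kept its direction in all 11 alternatives (-1.51 to -0.93 on leaving out single arrays, both ends set by the wild-type arrays). So did the difference of Myocd from knockout cells (1.54 to 1.71 over 11). The knockout and wild-type arrays chose the gene for its direction, so these alternatives show only how far the size moved. The Myocd change stayed positive in 19 alternatives, from 0.037 to 0.62 on leaving out single arrays, with limma adjusted p from 0.0372 to 0.870, and passed only without wild-type replicate 2. Same-numbered replicates did not deviate together across probes (r from -0.26 to 0.09); with the replicate number as a block it was 0.33 (limma adjusted p = 0.404). Aorta minus liver was -0.70 with quantile normalization, -1.51 relative to the other 14 identified genes, -0.91 with normexp and -0.0045 without scaling, an alternative chosen after seeing the data. Aorta minus wild-type cells was -1.93 with quantile normalization, -2.67 with per-array medians, -1.29 relative to the other genes, -2.58 without scaling and -2.49 to -1.91 without single arrays. Liver minus wild-type cells was -1.75 with per-array medians, -0.82 with the percentile over probes above background on all 8 arrays, -1.32 with normexp, -2.58 without scaling, -1.35 to -0.77 without single arrays, and reversed to 0.22 relative to the other genes. The cause was not tested. Counts of called probes were 9097 for the knockout and 6695 for Myocd, and 2702 to 13175 and 2156 to 9212 without single arrays; where 1 array of a group remained, it was assumed to vary like the others. The lowest came without knockout replicate 1 (3789 without replicate 2) and without Myocd replicate 2 (2549 without replicate 1). For Myocd, 3906 probes were called in a fit of only the groups compared or without either knockout array, 4211 with no filter on dim probes, and 4394 with the replicate block, which gave 6378 for the knockout and, with wild-type numbers exchanged, also chosen after seeing the data, 10041. Of the calls, 59.3% were higher in the knockout and 52.6% with Myocd, against 37.7% and 42.3% with per-array medians and 71.3% and 78.1% relative to the other genes, scalings under which the median change of all tested probes was -0.11 and -0.12, and 0.14 and 0.20.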
